A study of Mus musculus with 11 samples.

Results

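A set of 10 genes around entry into S phase were followed in mouse HER2-transgenic mammary carcinoma lines: the 4 INK4 inhibitors Cdkn2a, Cdkn2b, Cdkn2c and Cdkn2d, the 3 CIP/KIP inhibitors Cdkn1a, Cdkn1b and Cdkn1c, the D-type cyclins Ccnd1 and Ccnd2, and Mtap, the metabolic neighbour of Cdkn2a and Cdkn2b. They were chosen by symbol, and each had 1 row among the 21846 genes of the table. Mtap, Cdkn2a and Cdkn2b were included because they had no counts in MamBo38 cells, so their levels are a description and were not tested. The question was how the other inhibitors stood in the cells in which this locus was silent.

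D-type cyclins activate CDK4 and CDK6, which phosphorylate the retinoblastoma protein and release E2F factors for S phase. INK4 proteins bind CDK4 and CDK6 and keep the cyclins off, while CIP/KIP proteins bind cyclin-CDK complexes and block above all CDK2. Cdkn2a encodes both p16Ink4a and, from another first exon, p19Arf, which holds back Mdm2 and so stabilises p53, and p53 in turn switches on Cdkn1a (p21). Mtap recycles methylthioadenosine, a by-product of polyamine synthesis, to methionine, and is often deleted together with Cdkn2a and Cdkn2b in tumors.

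RNA-seq was performed on 11 cultures of lines whose source was mammary carcinoma of virgin female FVBhuHER2 mice, all of which carry the human HER2 transgene. MamBo89HER2stable cells (MamBo89 below) came from 1 tumor and stay HER2-positive: the 4 libraries were untreated cells, untreated cells carrying the name AG3 (taken as the HER2-positive clone named in the study's methods), cells kept for 60 days in 30 µg/ml trastuzumab, a HER2-blocking antibody, and cells given trastuzumab for 30 days followed by 30 days without. MamBo43HER2labile cells (MamBo43) came from another tumor and gave 1 untreated HER2-positive library and 2 libraries of HER2-negative cells after the same schedules (MamBo43 TRT). MamBo38HER2loss cells (MamBo38) are HER2-negative, were derived from a tumor that grew from injected MamBo43 cells, and gave 2 untreated libraries (a and b) and 1 library for each schedule. HER2-negative cells were therefore 6 libraries and HER2-positive cells 5. No label says that libraries of a line came from separate isolates, so p-values rest on cultures. In the comparisons between lines they measure the spread between cultures within a group, which may be technical and includes schedules and AG3. In the pooled comparison that spread also holds differences between lines, and HER2 status cannot be told apart from line.

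Libraries held 17040454 to 27127662 counts, and values are given as CPM, counts scaled by library total and TMM factor. In CPM, 3 counts, used here as the limit that a count of 0 allows, amounted to 0.114 to 0.179 depending on the library. Epithelial markers (7 genes, Epcam, Cdh1 and keratins) summed to 2327 to 3715 CPM in MamBo89, 3135 CPM in MamBo43, 392 to 1753 CPM in MamBo43 TRT and 1.25 to 2.51 CPM in MamBo38, and mesenchymal markers (6 genes, Vim and Fn1 among them) to 266 to 2387, 819, 36906 to 42886 and 20398 to 29797 CPM, in the same order. Leukocyte markers (6 genes) stayed at or below 0.268 CPM and endothelial markers (4 genes) at or below 0.834 CPM. Myocyte and adipocyte markers (4 genes) summed to 0.117 to 0.524 CPM in HER2-positive and 1.29 to 5.06 CPM in HER2-negative libraries. A pair of libraries stood apart from their own line. AG3 differed 2-fold or more from the other MamBo89 libraries in 1677 to 2179 genes, against 54 to 260 among those, and MamBo38 untreated b differed from the other MamBo38 libraries in 554 to 714 genes, against 8 to 13 among those. The sample names end in a number, called the library code here, which untreated b shares with all MamBo89 and MamBo43 libraries (the shared code, 8 libraries), while the 3 other MamBo38 libraries carry another one.

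In MamBo38 the whole locus was silent at this depth. Mtap (chr4:89137122-89181081, plus strand), Cdkn2a (chr4:89274471-89294653, minus strand) and Cdkn2b (chr4:89306299-89311039, minus strand), which together span 173.918 kb of mouse chromosome 4 in GRCm38, had 0 counts in each of the 4 MamBo38 libraries and over 3 counts in each of the 7 others. In bulk RNA, fewer cells that transcribe a gene and less RNA per cell cannot be told apart. DNA was not analysed here.

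Mtap was highest in untreated MamBo43, the cells from which MamBo38 descends, with 3124 counts or 122 CPM. MamBo43 TRT had 68.1 CPM after withdrawal of trastuzumab and 31.7 CPM after 60 days in it. In MamBo89 the AG3 library had 86.0 CPM, the untreated library 29.4 CPM, the withdrawal library 25.8 CPM and the 60-day library 14.4 CPM. The level in MamBo43 was at least 683-fold, and that in the lowest of these libraries at least 80.3-fold, above what 3 counts amount to in the shallowest MamBo38 library.

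Cdkn2b, which encodes p15Ink4b, had 18.3 CPM in untreated MamBo43, 21.2 CPM in MamBo43 TRT after withdrawal and 9.44 CPM after 60 days. MamBo89 had 55.6 CPM in AG3, 47.3 CPM untreated, 45.2 CPM after withdrawal and 21 CPM after 60 days. Each MamBo89 library but the last lay above all 3 libraries of MamBo43 and MamBo43 TRT. The bound over MamBo38 was at least 52.7-fold in the lowest library and at least 311-fold in the highest.

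Cdkn2a was the least abundant of the locus genes, with 89 counts or 3.48 CPM in untreated MamBo43, 2.40 CPM in MamBo43 TRT after withdrawal and 1.15 CPM, or 30 counts, after 60 days. MamBo89 had 8.08 CPM in AG3, 5.06 CPM untreated, 6.12 CPM after withdrawal and 2.99 CPM after 60 days. Here the bound over MamBo38 was at least 6.43-fold in the lowest library and at least 45.2-fold in the highest. A count per gene does not separate p16Ink4a from p19Arf.

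HER2-negative libraries did not lack counts of the locus as a class. MamBo43 TRT, which had also become HER2-negative, kept counts of all 3 genes. These were 55.7% and 25.9% (withdrawal and 60 days) of the untreated MamBo43 level for Mtap, 68.9% and 33.0% for Cdkn2a and 115% and 51.4% for Cdkn2b. The study still detected a small share of HER2-positive cells under trastuzumab, and which cells held the RNA was not tested. Over the same libraries Cdh1, the epithelial cadherin, stood at 26.0% and 9.31% and Epcam at 25.1% and 4.87%. The keratin genes Krt8 (73.3% and 10.1%) and Krt18 (84.2% and 10.1%) were kept more than Mtap and Cdkn2a after withdrawal. After 60 days they were kept less than all 3 locus genes. In each of the 3 locus genes the library kept for 60 days in trastuzumab was lower than the library after withdrawal, in MamBo43 TRT as in MamBo89. Each is a single culture, and no test was made.

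**Figure D1:**
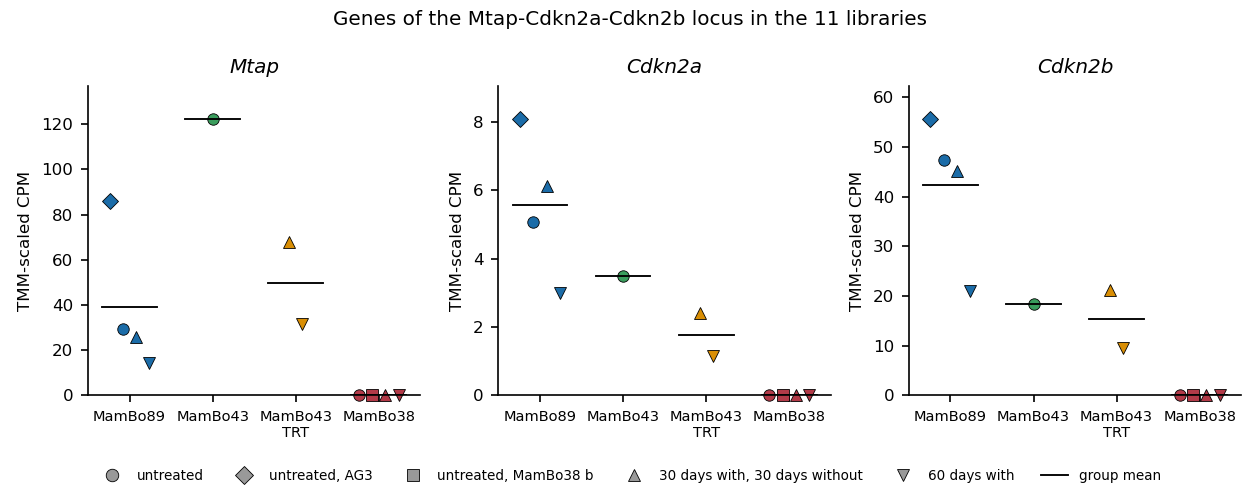
TMM-scaled CPM of Mtap, Cdkn2a and Cdkn2b (y axes, linear from 0) in MamBo89, MamBo43, MamBo43 TRT and MamBo38 cells, with 1 point per library, its shape giving the treatment, and a line at the group mean. All 4 MamBo38 libraries sit at 0 for each gene, and the highest Mtap level is the 122 CPM of untreated MamBo43.

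The sequences before the starts of Cdkn2a and Cdkn2b are shown because these are the inhibitor genes of the locus without counts in MamBo38. That of Cdkn1a is shown because it is the inhibitor with the highest level there. Each is the 250 bases upstream of a RefSeq start (GRCm38.p6), 5′ to 3′ on the gene's strand. Promoters of 7 of the 10 genes were matched, all but those of Cdkn1c, Ccnd1 and Ccnd2. Both strands were searched for E2F words (TTTGGCGC, TTTCGCGC, TTTCCCGC or TTTGCCGC, held by 1.86% of 32817 promoter windows of this length), the E-box CACGTG (6.02%), the GC box GGGCGG (32.7%), TATAAA (12.4%) and the p53 half-site (7.12%), and matches are in capitals. The p53 half-site was added to the search after the sequences had been seen.
Cdkn2a, upstream start of the p19Arf transcript, chr4:89294620-89294869, minus strand: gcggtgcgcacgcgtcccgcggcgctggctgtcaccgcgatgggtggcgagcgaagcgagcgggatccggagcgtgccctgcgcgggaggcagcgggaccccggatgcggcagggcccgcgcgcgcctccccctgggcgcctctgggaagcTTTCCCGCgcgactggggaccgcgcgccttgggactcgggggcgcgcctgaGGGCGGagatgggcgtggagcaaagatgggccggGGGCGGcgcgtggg
Cdkn2a, downstream start of the p16Ink4a transcript, chr4:89282193-89282442, minus strand: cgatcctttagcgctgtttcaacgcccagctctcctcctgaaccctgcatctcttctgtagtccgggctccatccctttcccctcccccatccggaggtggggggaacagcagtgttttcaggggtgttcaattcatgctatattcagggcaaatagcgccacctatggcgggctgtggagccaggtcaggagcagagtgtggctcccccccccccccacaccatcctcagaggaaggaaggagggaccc
Cdkn2b, chr4:89311033-89311282, minus strand: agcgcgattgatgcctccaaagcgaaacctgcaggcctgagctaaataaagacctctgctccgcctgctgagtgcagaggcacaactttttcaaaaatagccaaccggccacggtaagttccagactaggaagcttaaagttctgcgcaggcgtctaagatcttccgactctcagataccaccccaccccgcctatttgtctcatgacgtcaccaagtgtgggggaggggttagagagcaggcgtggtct
Cdkn1a, upstream start, chr17:29090729-29090978, plus strand: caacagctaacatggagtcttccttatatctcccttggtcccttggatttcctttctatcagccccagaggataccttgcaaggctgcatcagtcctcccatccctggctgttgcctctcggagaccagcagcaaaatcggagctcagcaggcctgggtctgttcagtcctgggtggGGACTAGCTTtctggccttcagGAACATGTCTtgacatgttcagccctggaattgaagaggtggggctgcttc

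The window before the p19Arf start, of 78.4% GC, held 1 E2F word and 2 GC boxes. Those before the p16Ink4a start (60.0% GC) and before Cdkn2b (53.6% GC) held none of the motifs searched. Nor did that before Mtap (54.4% GC), which is not shown. The Cdkn1a window held 2 p53 half-sites and no other motif. A second RefSeq start of Cdkn1a, at base 29093769, had 2 GC boxes and no p53 half-site in its window, and Cdkn2d was the only other matched member with a p53 half-site, of which it had 1. A match is a string of letters and not evidence of binding.

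The silent stretch had transcribed neighbours on its centromeric side. Within 3 Mb of either end, 50 other genes had a row, of which 33 had 3 counts or fewer in all libraries. Over 3 counts in every library outside MamBo38 were found for 10 of them, and 9 of the 10 also had over 3 counts in every MamBo38 library. The nearest such neighbour with high counts was Klhl9, an adaptor of a ubiquitin ligase, 415 kb before the locus, with 904 to 1619 counts in MamBo38 and 936 to 2624 elsewhere. Focad, 726 kb before it, had 591 to 969 counts in MamBo38 and 465 to 1049 elsewhere, and Rps6, a protein of the small ribosomal subunit, 22310 to 41689 and 26139 to 43189. Acer2, a ceramidase 2202 kb before the locus, was the exception, with 3 to 14 counts in MamBo38 and 34 to 498 elsewhere.

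Type I interferon genes lie on both sides of Klhl9. Between Klhl9 and Mtap 21 genes had a row, 8 of them interferon genes, and the highest count in any library was 8, so that counts say little about that interval. On the telomeric side the nearest gene with a row was Dmrta1, a DM-domain transcription factor 368 kb after Cdkn2b. It had 1 to 5 counts in MamBo38, 6 in untreated MamBo43, 20 to 47 in MamBo43 TRT and 0 to 169 in MamBo89. No gene beyond it in the window exceeded 5 counts, so counts say little about that side either. Before the locus, Hacd4, an enzyme of long-chain fatty acid synthesis, had 203 to 575 counts in MamBo38 and 309 in untreated MamBo43. MamBo43 TRT had 135 to 142 and MamBo89 2 to 5.

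**Figure D2:**
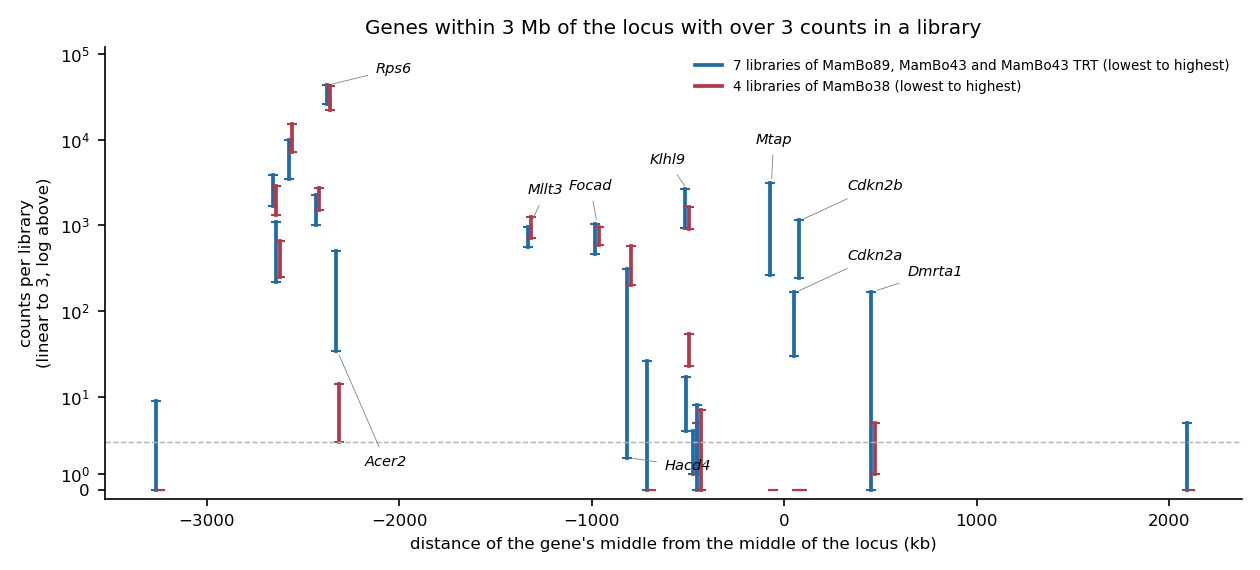
Counts per library (y axis, linear to 3 and logarithmic above) of the genes within 3 Mb of the Mtap to Cdkn2b interval that exceeded 3 counts in a library, against distance from its middle in kb (x axis), as bars from the lowest to the highest of the 4 MamBo38 libraries and of the 7 others. Mtap, Cdkn2a and Cdkn2b lie at 0 in MamBo38, while Klhl9 is at 904 to 1619 counts there and at 936 to 2624 in the other lines.

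The pattern of the locus, by which it was chosen, was shared by other genes. In all, 298 genes, 1.36% of rows, had 3 counts or fewer in each MamBo38 library and over 3 in each other library, and 100 of these were at exactly 0 in MamBo38. Ordered by their lowest CPM outside MamBo38, Mtap stood 3rd (14.4 CPM), Cdkn2b 6th (9.44 CPM) and Cdkn2a 40th (1.15 CPM) of the 100. The others of the first 6, named here after their values were seen, were Pcsk6, a proprotein convertase (21 CPM), Cyp1b1, a cytochrome P450 (20.7 CPM), Spint1, a protease inhibitor of epithelia (10.7 CPM), and Kcnk1, a potassium channel (10.1 CPM). Among the genes whose log2(CPM + 1) followed Cdkn2a most closely over the 11 libraries were Gca (r = 0.984), Chmp2b (0.984), Aco1 (0.984) and Nars2 (0.984). These are descriptions over libraries that share their lines, without a test.

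Outside the locus, 6 members could be tested in every comparison, and the seventh, Cdkn1c, only in the comparisons between lines. A gene was called at an adjusted p under 0.1, from edgeR's quasi-likelihood test with Benjamini-Hochberg adjustment over all genes tested, and a log2 fold change of at least 1 in either direction. Between HER2-negative and HER2-positive libraries 3 of the 6 members were called, beside 32.8% of the 12364 genes tested (15.8% higher, 17% lower): Cdkn1a was higher, Cdkn1b and Ccnd1 were lower. Between MamBo38 and MamBo89 4 of 7 were called, beside 41.9% of 13782 genes (19.9% higher, 22% lower), and 1 of these 4 was Cdkn1c, which is near the limit of detection and exceeded 3 counts in AG3 alone among those libraries. The share of members called was thus near or little above that of all genes in both.

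Within the lineage of the second tumor, 4 of 7 members were higher in MamBo38 than in untreated MamBo43 (background 35.9% called, 17.4% higher and 18.5% lower) and none lower, and 2 of 7 were higher in MamBo43 TRT than in untreated MamBo43 (background 29.1% called, 13.6% higher and 15.5% lower) and none lower. Untreated MamBo43 had 2 of 7 lower than MamBo89 (background 18.9% called, 11% higher and 7.86% lower), and MamBo43 TRT 1 of 7 lower than MamBo38 (background 20.4% called, 10.2% in each direction). These comparisons share libraries with each other, and the single untreated MamBo43 library was assumed to vary like the other groups. Trastuzumab within MamBo89 and within MamBo38 called 0 of 6 members, but also 0% of the 12046 and 11861 genes tested, with 186 and 503 genes at an unadjusted p under 0.05 and 9 and 5 genes called by DESeq2.

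Cdkn2c (p18Ink4c), one of the pair of INK4 genes outside the locus, was higher where the locus was silent, by less than the fold used for calls against MamBo89. Its MamBo38 libraries had 17.5 (untreated a), 23.9 (untreated b), 19.4 (withdrawal) and 18.7 CPM (60 days). MamBo89 had 10.7 (AG3), 9.49 (untreated), 8.97 (withdrawal) and 12.0 CPM (60 days), untreated MamBo43 9.08 CPM, and MamBo43 TRT 15.2 (withdrawal) and 12.8 CPM (60 days). All MamBo38 libraries lay above all others, and MamBo43 TRT lay between them and the HER2-positive libraries without overlap.

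The log2 fold change of Cdkn2c was 1.13 (SE 0.28, adjusted p = 0.00822) against untreated MamBo43, 0.95 (SE 0.17, adjusted p = 0.000535) against MamBo89 and 0.83 (SE 0.19, adjusted p = 0.00327) for all HER2-negative against HER2-positive libraries. Among all genes tested, 34.9% had HER2 groups that did not overlap, 59.3% had MamBo38 apart from MamBo89 and 58.7% had MamBo43 TRT apart from MamBo38. Against MamBo89 the value passed the fold minimum without MamBo38 untreated a, by a narrow margin, without the 60-day MamBo89 library (1.03) and within the shared code (1.22), and in untreated libraries alone the pooled value was 1.11. MamBo43 TRT and untreated MamBo43 differed by 0.62 (SE 0.29, adjusted p = 0.131), which did not pass.

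Cdkn2d (p19Ink4d), the other INK4 gene outside the locus, was also highest in MamBo38, at 19.1 (untreated a), 21.3 (untreated b), 17.2 (withdrawal) and 16.6 CPM (60 days). MamBo89 had 7.69 (AG3), 9.35 (untreated), 9.09 (withdrawal) and 15.9 CPM (60 days), untreated MamBo43 4.73 CPM and MamBo43 TRT 7.69 (withdrawal) and 8.59 CPM (60 days). MamBo38 did not overlap the other groups, although the 60-day MamBo89 library came close, and MamBo43 TRT was within the range of the HER2-positive libraries.

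Cdkn2d was higher in MamBo38 than in untreated MamBo43 by a log2 fold change of 1.96 (SE 0.42, adjusted p = 0.00359) and lower in MamBo43 TRT than in MamBo38 by -1.18 (SE 0.30, adjusted p = 0.0138). The latter call was lost without the withdrawal library of MamBo43 TRT (-1.10, adjusted p = 0.110) and within the shared code (-1.39, adjusted p = 0.108). Against MamBo89 the MamBo38 value was 0.82 (SE 0.23, adjusted p = 0.00998), and 1.09 without the 60-day MamBo89 library. Untreated MamBo43 stood below MamBo89 by -1.15 (SE 0.40, adjusted p = 0.0683), which was not called without the same MamBo89 library (-0.88), without MamBo38 untreated a or the withdrawal library of MamBo43 TRT (adjusted p = 0.102 in both), or within the shared code (adjusted p = 0.171). HER2-negative and HER2-positive libraries as wholes differed by 0.68 (SE 0.36, adjusted p = 0.129), and by 1.5 (adjusted p = 0.0519) in untreated libraries alone.

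**Figure D3:**
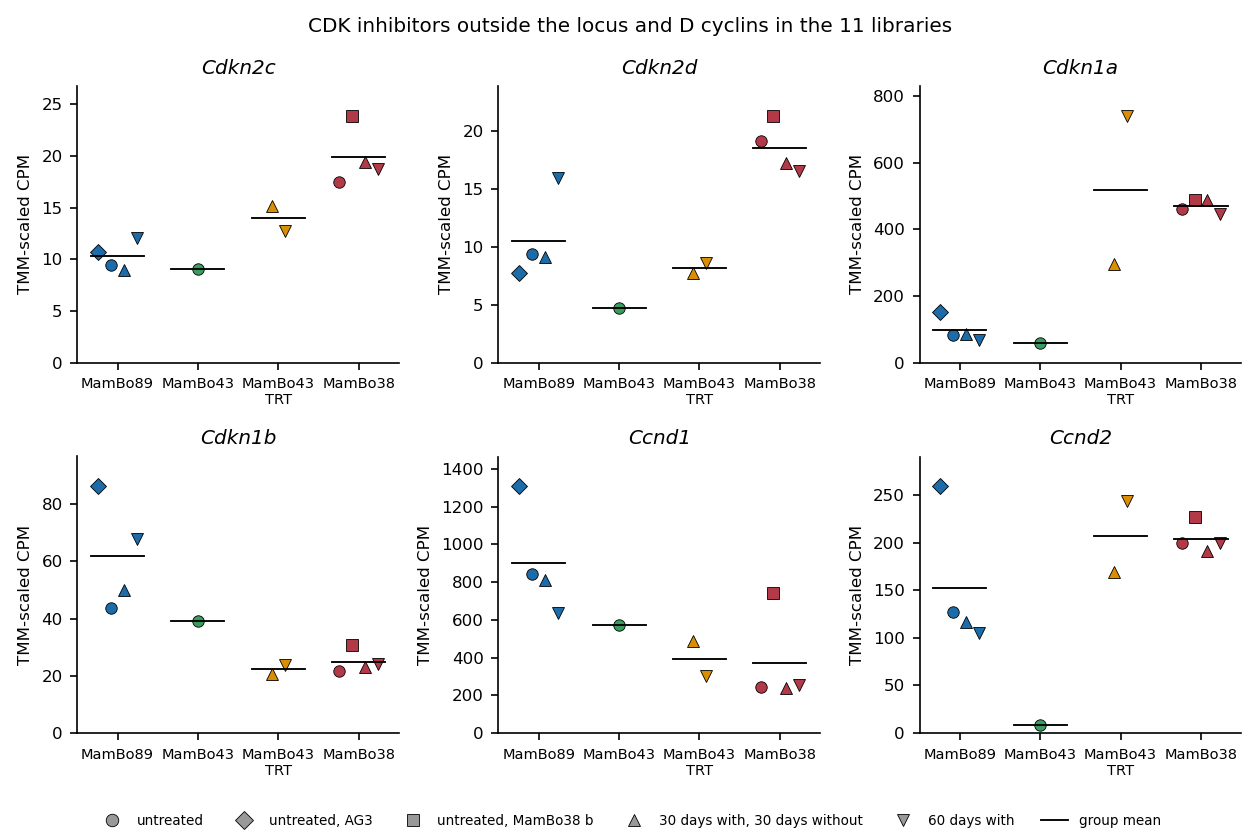
TMM-scaled CPM (y axes, linear from 0) of Cdkn2c, Cdkn2d, Cdkn1a, Cdkn1b, Ccnd1 and Ccnd2 in the 11 libraries, 1 point each with its shape giving the treatment, and lines at the group means. Cdkn1a lies at 295 to 742 CPM in MamBo43 TRT and MamBo38 and at 60.1 to 152 CPM in MamBo43 and MamBo89, and Ccnd2 is at 8.88 CPM in untreated MamBo43 alone.

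Cdkn1a, the p53-induced inhibitor p21, had the largest pooled difference between HER2 states of the members tested. Within the MamBo43 lineage Ccnd2 differed more (4.54 and 4.52 against untreated MamBo43). MamBo38 had 461 (untreated a), 487 (untreated b), 487 (withdrawal) and 446 CPM (60 days), and MamBo43 TRT 295 CPM after withdrawal and 742 CPM after 60 days. Untreated MamBo43 had 60.1 CPM, and MamBo89 83.0 (untreated), 86.2 (withdrawal), 68.6 (60 days) and 152 CPM (AG3). The lowest HER2-negative library had nearly double the level of the highest HER2-positive one, and MamBo43 TRT held both the lowest and the highest HER2-negative value.

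The pooled log2 fold change of Cdkn1a was 2.43 (SE 0.29, adjusted p = 5.28e-05), a 5.39-fold higher level. It was 2.27 (SE 0.31, adjusted p = 9.18e-05) for MamBo38 against MamBo89, 2.97 (SE 0.58, adjusted p = 0.00209) for MamBo38 against untreated MamBo43, and 3.10 (SE 0.60, adjusted p = 0.00395) for MamBo43 TRT against untreated MamBo43. MamBo43 TRT and MamBo38 differed by 0.14 (SE 0.36, adjusted p = 0.806), with a 95% interval from -0.65 to 0.93, so that no difference in Cdkn1a was detected between these HER2-negative states, of which MamBo43 TRT had counts of the locus and MamBo38 had none. The pooled call was made under all 9 alternatives tried on it and without each of the 11 libraries in turn, with values between 2.27 and 2.98.

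Trastuzumab went with more Cdkn1a only in MamBo43, in which HER2 was lost, and this difference between lines was tested. In MamBo89 the treated libraries stood at a log2 fold change of -0.61 (SE 0.34, adjusted p = 0.944) from the untreated ones, and in MamBo38 at -0.04 (SE 0.11, adjusted p = 0.904). In 1 fit of line and treatment, the effect in MamBo43 exceeded that in MamBo89 by 3.70 (SE 0.71, adjusted p = 0.0149) and that in MamBo38 by 3.14 (SE 0.69, adjusted p = 0.0227), beside 22.2% and 19.6% of genes called. This test was added after the data had been seen and rests on the single untreated MamBo43 library. Of the windows of 75 bases in Cdkn1a exons, 7.05% also occur in other genes, which leaves the share of their reads uncertain.

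Cdkn1b (p27), which AKT and SKP2 hold down in growing cells, was lower in HER2-negative libraries, the opposite of Cdkn1a. MamBo38 had 21.7 (untreated a), 30.8 (untreated b), 23.1 (withdrawal) and 24.2 CPM (60 days), and MamBo43 TRT 20.7 (withdrawal) and 23.7 CPM (60 days). Untreated MamBo43 had 39.3 CPM and MamBo89 43.5 (untreated), 50.1 (withdrawal), 67.7 (60 days) and 86.2 CPM (AG3). HER2-negative and HER2-positive libraries did not overlap.

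The pooled log2 fold change of Cdkn1b was -1.26 (SE 0.21, adjusted p = 0.000444) and that of MamBo38 against MamBo89 -1.31 (SE 0.21, adjusted p = 0.000341). Within the second tumor's lineage the differences did not pass: -0.66 (SE 0.32, adjusted p = 0.123) for MamBo38 and -0.83 (SE 0.36, adjusted p = 0.103) for MamBo43 TRT, each against untreated MamBo43. With MamBo38 and MamBo43 libraries alone the pooled value was -0.75 (adjusted p = 0.0544, under the fold minimum), and with untreated libraries alone it was -1.08 (adjusted p = 0.125).

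Cdkn1c (p57), an imprinted inhibitor of development, was at or under 3 counts in 9 of the 11 libraries, the exceptions being AG3 with 11 counts and the 60-day MamBo43 TRT library with 5. No other member outside the locus fell under 3 counts in any library. MamBo38 had 0, 2, 0 and 2 counts, so no fold is given for it, and 22.1% of its exon windows also occur in Gm44732. Its call in MamBo38 against MamBo89 (adjusted p = 0.0927) was lost in 10 of the settings tried, DESeq2 among them (adjusted p = 0.191).

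Summed per kilobase of exon, inhibitors outside the locus had higher levels in MamBo38 than in HER2-positive cells in both families. INK4 genes outside the locus reached 19.2 ± 2.23 CPM per kb (SD, n = 4) in MamBo38 against 10.5 ± 2.72 (n = 4) in MamBo89, 6.39 in untreated MamBo43 and 10.4 ± 0.23 (n = 2) in MamBo43 TRT. With the locus genes, the INK4 sum was 45.7 ± 9.81 CPM per kb in MamBo89, 22.6 in untreated MamBo43, 22.9 ± 6.95 in MamBo43 TRT and 19.2 ± 2.23 in MamBo38. The MamBo38 libraries ranged from 17.5 to 22.4 CPM per kb, beside 18.0 and 27.8 in MamBo43 TRT and at least 32.2 in MamBo89. The absence of Cdkn2a and Cdkn2b from the MamBo38 sum is what chose them, so these sums are a description.

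Cdkn2b gave 46.9% to 71.7% of the INK4 level per kb in MamBo89, 58.5% in untreated MamBo43 and 37.7% to 54.7% in MamBo43 TRT, and none in MamBo38, where Cdkn2d gave 60.1% to 65.0% and Cdkn2c the rest. Cdkn2d gave 8.77% to 31.3% in MamBo89. The CIP/KIP sum was 138 ± 6.15 CPM per kb in MamBo38 and 151 ± 89.4 in MamBo43 TRT, against 41.1 ± 13.9 in MamBo89 and 25.6 in untreated MamBo43. Cdkn1a gave 94.8% to 97.5% of it in HER2-negative and 56.4% to 70.8% in HER2-positive libraries. Per kb, the ratio of Cdkn1a to Cdkn1b was 18.3 to 40.1 in HER2-negative libraries and 1.3 to 2.44 in HER2-positive ones.

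**Figure D4:**
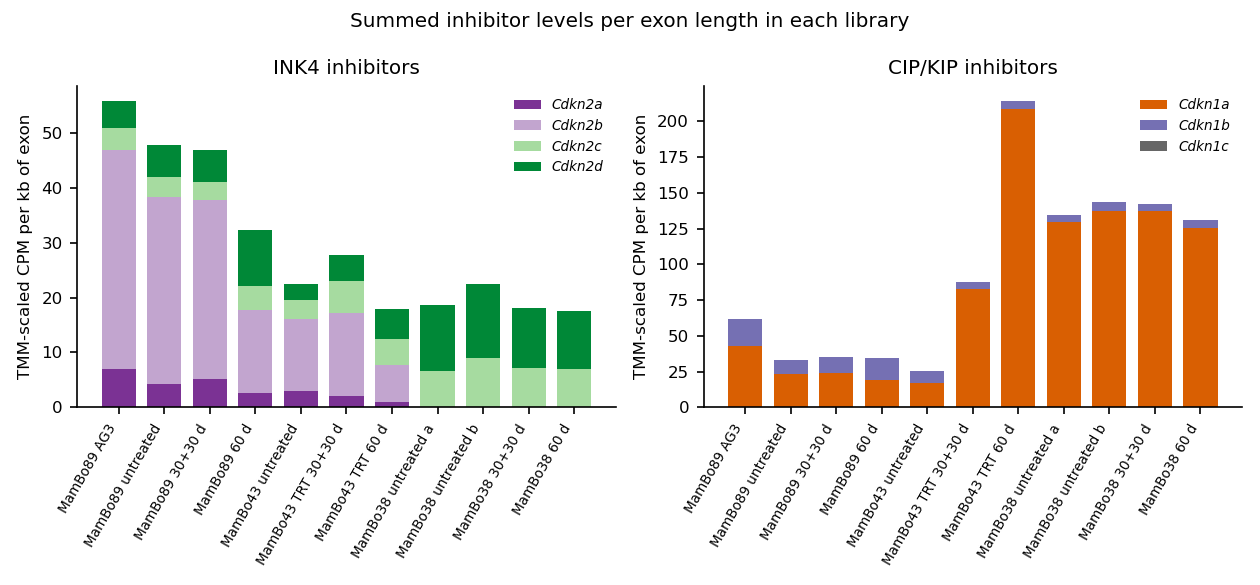
TMM-scaled CPM per kb of exon (y axes, linear from 0) of the INK4 genes (left) and the CIP/KIP genes (right), stacked by gene for each of the 11 libraries (x axes). In MamBo38 the INK4 bar holds only Cdkn2c and Cdkn2d and sums to 17.5 to 22.4, and the CIP/KIP bar, nearly all Cdkn1a, to 131 to 144.

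Ccnd2, cyclin D2, was low in a single state. Untreated MamBo43 had 8.88 CPM, while MamBo43 TRT had 169 (withdrawal) and 244 CPM (60 days) and MamBo38 200 (untreated a), 227 (untreated b), 191 (withdrawal) and 199 CPM (60 days). MamBo89 had 128 (untreated), 117 (withdrawal), 105 (60 days) and 259 CPM (AG3). Both HER2-negative states that arose from MamBo43 therefore stood 19.0-fold or more above it, in single libraries, and AG3 was as high as they were. With AG3 as the only untreated MamBo89 library, Ccnd2 was called lower after trastuzumab in that line (-1.24, adjusted p = 0.000304), and without AG3 it was not (-0.18, adjusted p = 1).

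The log2 fold change of Ccnd2 was 4.54 (SE 0.59, adjusted p = 0.000546) for MamBo43 TRT and 4.52 (SE 0.58, adjusted p = 0.000147) for MamBo38, each against the same untreated MamBo43 library, which was itself lower than MamBo89 by -4.10 (SE 0.57, adjusted p = 0.000701). MamBo43 TRT and MamBo38 differed by 0.02 (SE 0.32, adjusted p = 0.984, 95% interval -0.70 to 0.73). The pooled HER2 comparison, in which MamBo89 outweighs MamBo43, gave 0.73 (SE 0.54, adjusted p = 0.283), 1.21 (adjusted p = 0.0857) without AG3, and 4.49 (adjusted p = 0.000445) with MamBo38 and MamBo43 libraries alone. The effect of trastuzumab on Ccnd2 in MamBo43 exceeded that in MamBo89 by 5.33 (SE 0.57, adjusted p = 0.00271) and that in MamBo38 by 4.68 (SE 0.56, adjusted p = 0.00222), again in the test added later.

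Ccnd1, cyclin D1, ran lower in HER2-negative libraries, but 1 MamBo38 library went against the rest. MamBo38 had 244 (untreated a), 240 (withdrawal) and 257 CPM (60 days), and 740 CPM in untreated b, the MamBo38 library of the shared code. MamBo43 TRT had 489 (withdrawal) and 300 CPM (60 days), untreated MamBo43 573 CPM, and MamBo89 845 (untreated), 812 (withdrawal), 636 (60 days) and 1309 CPM (AG3). Without untreated b the HER2-negative libraries all lay below the HER2-positive ones, and with it they overlapped.

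The pooled log2 fold change of Ccnd1 was -1.15 (SE 0.34, adjusted p = 0.0149) and that of MamBo38 against MamBo89 -1.28 (SE 0.40, adjusted p = 0.0158). Among libraries of the shared code these were -0.70 (adjusted p = 0.171) and -0.28 (adjusted p = 0.642), and with the code as a covariate the pooled value was -0.71 (adjusted p = 0.0945). The pooled call was also lost without AG3 (-0.91, adjusted p = 0.0444), in untreated libraries alone (-0.87, adjusted p = 0.319) and with MamBo38 and MamBo43 libraries alone (-0.64, adjusted p = 0.473), and without untreated b MamBo38 against MamBo89 was -1.87. Against untreated MamBo43, MamBo38 stood at -0.63 (SE 0.59, adjusted p = 0.421) with all libraries, at -1.22 (adjusted p = 0.0209) without untreated b, and at 0.37 within the shared code. Within MamBo38 the code and the culture cannot be told apart. Trastuzumab against untreated MamBo38 called Ccnd1 (-1.57, adjusted p = 2.14e-07) when untreated b was the only untreated library and gave 0.00 (adjusted p = 0.997) when untreated a was. Of the exon windows of Ccnd1, 20.6% also occur in LTO1. Per kb, Ccnd1 exceeded Ccnd2 by 129-fold in untreated MamBo43, 10.1-fold to 13.9-fold in MamBo89 and 2.44-fold to 6.51-fold in the HER2-negative libraries.

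**Figure D5:**
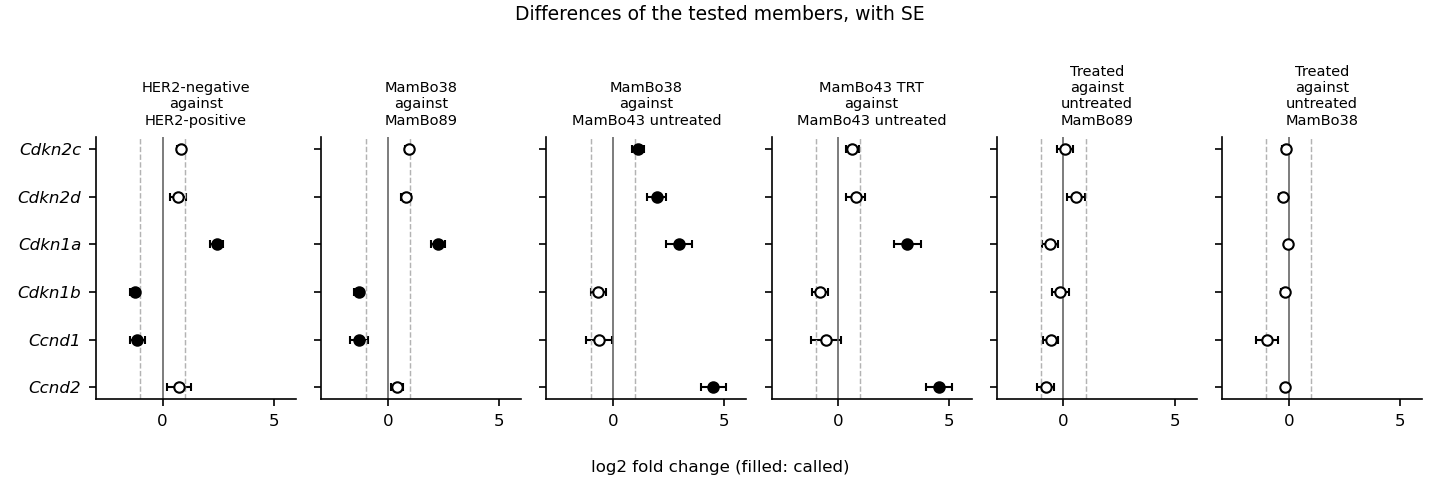
Log2 fold change (x axes) of Cdkn2c, Cdkn2d, Cdkn1a, Cdkn1b, Ccnd1 and Ccnd2 in 6 comparisons, with bars of 1 SE, filled points for called genes and dashed lines at the fold minimum of 1. Cdkn1a is filled at 2.27 to 3.10 in the first 4 comparisons, and no member is filled for trastuzumab within MamBo89 or MamBo38.

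The p53 list, read beside Cdkn1a and Cdkn2a, leaned to higher levels in HER2-negative cells. Of 26 genes tested, 11 were higher and 1 lower (median log2 fold change 0.62, against -0.04 over all genes, of which 15.8% passed upward and 17% downward). In MamBo43 TRT against untreated MamBo43, 12 were higher and none lower (median 1.24, all genes 0.00, 13.6% of genes higher), and in MamBo38 against the same library 12 were higher and 4 lower (median 0.96, all genes 0.00, 17.4% higher). Without AG3 the pooled count was 13 higher and 1 lower, and without MamBo38 untreated b it was 10 and 1.

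Among its genes, Mdm2, the ubiquitin ligase that p19Arf restrains, was at 73.9 CPM in untreated MamBo43, 308 to 548 CPM in MamBo43 TRT, 492 to 976 CPM in MamBo38 and 86.0 to 170 CPM in MamBo89 (pooled log2 fold change 2.44, adjusted p = 8.88e-05). Pmaip1, the BH3-only killer Noxa, was at 0 in untreated MamBo43, 4.12 to 9.97 CPM in MamBo43 TRT, 1.07 to 4.39 CPM in MamBo38 and 0.0583 to 0.974 CPM in MamBo89. Sesn2, a stress-induced brake on mTORC1 (1.86, adjusted p = 3.98e-06), and Gtse1, a G2 and S phase protein that restrains p53 (1.87, adjusted p = 0.0337), were higher in the pooled comparison, and Btg2, an antiproliferative factor (-1.35, adjusted p = 0.000204), was lower.

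Between MamBo43 TRT and MamBo38, 3 of the 26 genes were called, beside 20.4% of all genes. Perp, a p53 target of desmosomal adhesion, was at 4.23 to 7.51 CPM in MamBo38, 45.4 to 72.7 CPM in MamBo43 TRT and 81.9 CPM in untreated MamBo43 (MamBo43 TRT against MamBo38 3.37, adjusted p = 0.000109), and the death receptor gene Fas was higher in MamBo43 TRT than in MamBo38 too (1.90, adjusted p = 0.0140), while Sesn1 was lower (-1.06, adjusted p = 0.0329). Without MamBo38 untreated b none was lower. Trp53 itself was at 146 to 197 CPM in MamBo38, 169 to 230 CPM in MamBo43 TRT, 117 CPM in untreated MamBo43 and 88.1 to 168 CPM in MamBo89. The genes that followed Cdkn1a most closely in log2(CPM + 1) over the 11 libraries were Ppm1f (r = 0.992), Slc7a6 (0.987), the p53 target Zmat3 (0.985), Ube2l6 (0.983) and Ifi47 (0.982), given without a test.

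Partners and targets of the D cyclins were called in 4 of 24 cases between HER2 states, beside 32.8% of all genes. Of these CDK partners, RB family and E2F genes, HER2-negative cells had 3 higher (5 without AG3) and 1 lower (median 0.05, beside 15.8% and 17% of all genes): Cdk4 (1.22, adjusted p = 0.000168), Cdk6 (1.16, adjusted p = 0.0129) and Lin52 (1.08, adjusted p = 0.00251), and, lower, Lin9 (-1.06, adjusted p = 0.00684), the last pair being subunits of the complex that represses and activates cell-cycle genes. Cdk4, the direct target of the INK4 proteins, was at 431 to 485 CPM in MamBo38, 500 to 568 CPM in MamBo43 TRT, 268 CPM in untreated MamBo43 and 145 to 256 CPM in MamBo89, without overlap between the HER2 groups. Rb1 was at 18.1 to 28.1 CPM in MamBo38, 25.4 to 27.8 CPM in MamBo43 TRT and 74.5 CPM in untreated MamBo43. It was called lower in both states against that single untreated library (-1.74 and -1.49). Against MamBo89, MamBo38 stood at -0.69 (SE 0.24, adjusted p = 0.0255), under the fold minimum, and Rb1 was not called between HER2 states.

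Proliferation genes were lower in MamBo43 TRT than in MamBo38, in 14 of 25 genes tested, with none higher (median -2.03, all genes 0.01, 10.2% of genes lower). Without MamBo38 untreated b the count was 11 (median -1.66). The largest differences were those of the mitotic genes Aurkb (-3.94, adjusted p = 0.00743), Bub1 (-3.66, adjusted p = 0.0275) and Birc5 (-3.46, adjusted p = 0.00768). Among E2F factors and cyclins, E2f8 (-4.67, adjusted p = 0.0104), E2f7 (-2.96, adjusted p = 0.0390), Ccna2 (-2.74, adjusted p = 0.0388), E2f2 (-1.96, adjusted p = 0.00283) and Ccne1 (-1.53, adjusted p = 0.0149) were lower in the same comparison and none of the 24 was higher. Between HER2 states as wholes, the proliferation list had Bub1b higher and Tk1 and Mcm5 lower (median -0.06, 3 of 25 beside 32.8% of all genes), and without AG3 it had 4 higher and 1 lower, without untreated b 1 higher and 5 lower. Mki67, the Ki-67 antigen, was at 4.45 to 5.49 CPM in MamBo43 TRT, 27.4 to 114 CPM in MamBo38, 20.5 CPM in untreated MamBo43 and 36.8 to 136 CPM in MamBo89 (MamBo43 TRT against MamBo38 -3.36, adjusted p = 0.0112). The highest MamBo38 value was that of untreated b, and the other MamBo38 libraries had 27.4 to 32.9 CPM. Levels of Cdkn1a overlapped between MamBo38 and MamBo43 TRT and those of Mki67 did not. Of all genes tested, 58.7% did not overlap between these groups.

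Of the enzymes that feed or use the pathway of Mtap, 20 were tested, with 2 higher and 2 lower in HER2-negative cells (median 0.14, beside 15.8% and 17% of all genes): spermidine synthase Srm (1.5, adjusted p = 0.00301) and ornithine decarboxylase Odc1 (1.16, adjusted p = 0.0127) were higher, and the polyamine oxidases Smox (-1.46, adjusted p = 0.00163) and Paox (-1.39, adjusted p = 0.00574) were lower. Prmt5, the methyltransferase that methylthioadenosine inhibits, was at 65.9 to 73.3 CPM in MamBo38, 79.2 to 84.7 CPM in MamBo43 TRT, 90.6 CPM in untreated MamBo43 and 29.8 to 56.5 CPM in MamBo89, and Mat2a, which makes S-adenosylmethionine, at 183 to 196, 310 to 336, 201 and 154 to 279 CPM. Neither gene was called in the pooled comparison.

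Among 17 regulators of the Cdkn2a locus, HER2-negative cells had 4 higher and 3 lower (median 0.05, beside 15.8% and 17% of all genes). Runx3 (2.87, adjusted p = 0.00116), Tbx3 (2.15, adjusted p = 0.00349), Cbx7 (2.04, adjusted p = 0.00616) and Id1 (1.02, adjusted p = 0.0102) were higher. Tbx2 (-2.36, adjusted p = 0.0111), Cbx8 (-1.24, adjusted p = 0.000501) and Ezh2 (-1.12, adjusted p = 0.0021) were lower. Tbx3 was at 16.7 to 25.3 CPM in MamBo38, 7.74 to 8.98 CPM in MamBo43 TRT, 0.978 CPM in untreated MamBo43 and 2.10 to 5.98 CPM in MamBo89. Of 17 regulators of p21 and p27, 5 were higher and 4 lower (median 0.08, beside the same 15.8% and 17%). Myc was higher (1.67, adjusted p = 3.85e-05), with 404 to 446 CPM in MamBo38, 377 to 411 CPM in MamBo43 TRT, 82.0 CPM in untreated MamBo43 and 94.3 to 168 CPM in MamBo89, as were Smad3 (1.22, adjusted p = 0.000818), Skp2 (1.11, adjusted p = 0.0298) and Zbtb17 (1.02, adjusted p = 0.00282). Foxo1, which drives Cdkn1b transcription, was lower (-2.17, adjusted p = 3.95e-05), as were Foxo4 (-2.19, adjusted p = 0.000126), the luminal factor Tfap2c (-6.07, adjusted p = 2.85e-05) and Cul1 (-1.29, adjusted p = 5.49e-05). Epithelial and mesenchymal marker sums moved with these lists in the same libraries, and their part was not tested.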

How the data were processed

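RNA-seq counts of 11 cultures were analysed. Per the labels and the study's methods, the authors made single-end TruSeq libraries read on a NextSeq instrument, aligned with STAR 2.5 to mm10 and deposited expected counts per gene from RSEM 1.3.0, all whole numbers, not normalised and in 1 table. Whether reads were counted by strand is not given in the sources used here.

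Groups came from the labels. Counts were tested in R 4.3.3 with edgeR 4.0.16 (filterByExpr with a minimum count of 10, TMM scaling, quasi-likelihood test, Benjamini-Hochberg adjustment over all genes tested), and calls used the study's thresholds, an adjusted p under 0.1 and a log2 fold change of at least 1. The HER2 comparison was fitted as 2 groups over all libraries, the line contrasts as 4 groups that share 1 estimate of the spread, and treatment within MamBo89 and within MamBo38. SE is the log2 fold change divided by the root of F, and 95% intervals use the t distribution of the test. Alternatives were DESeq2 1.42.0, RLE scaling, other filters and thresholds, left-out libraries and the library code. On simulated data 89.5% of 200 genes changed 8-fold were recovered in the HER2 design (11 false calls in 12255 genes), and 76% for MamBo43 TRT against untreated MamBo43 (11 in 13392).

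Positions and exon lengths came from GENCODE M21 (GRCm38), in which 21804 of 21846 gene identifiers were found. Intervals cover the spread between libraries, and limits from 3 counts cover counting error only. Members and gene lists were chosen with earlier results of these data known. All members were named, and from each list the called genes with the largest changes, up to 4 in each direction, beside genes of known role (Trp53, Rb1, Mki67, Prmt5, Mat2a) chosen after their values were seen. The test of the difference in treatment effect between lines, and counts of the lists without the 2 libraries that stand apart, were added after the data had been seen. A gene among those most like Cdkn2a in pattern is not reported here.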

Additional observations from a re-analysis of the deposited data

Results flagged for a closer look

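Single libraries stood far from the rest of their group (Dixon's test) in 6 of 37 groups of members' values. The usual rate of about 1 in 20 cannot be set beside this count, because the groups share libraries and the HER2 groups mix lines. The AG3 library was far above the others for Cdkn1a among HER2-positive libraries (152 CPM, others 60.1 to 86.2), for Cdkn1c within MamBo89 (0.536 CPM, others 0.0583 to 0.138) and among HER2-positive libraries (0.536 CPM, others 0 to 0.138), and for Ccnd2 within MamBo89 (259 CPM, others 105 to 128). MamBo38 untreated b was far above the others for Ccnd1 within MamBo38 (740 CPM, others 240 to 257) and for Cdkn1b among HER2-negative libraries (30.8 CPM, others 20.7 to 24.2).

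The trastuzumab effect differed between lines, by an interaction test added after the data had been seen, for Cdkn1a (MamBo43 minus MamBo89 3.70, MamBo43 minus MamBo38 3.14, log2) and Ccnd2 (5.33 and 4.68). Each of these 4 differences rests on the single untreated MamBo43 library.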

How the results depend on the processing

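Requiring 10 counts in every library lowered the genes called to 2597 for HER2, 3038 for MamBo38 against MamBo89, 1391 for untreated MamBo43 against MamBo89, 2810 for MamBo38 and 2462 for MamBo43 TRT against untreated MamBo43, and 1318 for MamBo43 TRT against MamBo38, as fewer genes were tested. DESeq2 called 9 genes for trastuzumab within MamBo89 and 5 within MamBo38. Untreated MamBo43 against MamBo89 called 1 member, not 2, at an adjusted p under 0.05 and within the shared code, and MamBo43 TRT against MamBo38 called 0 members, not 1, within the shared code. For MamBo43 TRT against MamBo38 the sign of Ccnd2, which was not called, turned under DESeq2 (-0.0079), RLE scaling (-0.0076) and the filter of 10 counts (-0.0077). Within the shared code it was -0.14 and Ccnd1 was -0.91, while Ccnd1 in MamBo38 against untreated MamBo43 was 0.37. The cause of these changes was not tested.

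With libraries left out in turn, members called ranged from 1 to 2 for untreated MamBo43 against MamBo89 (1 without MamBo38 untreated a, the withdrawal library of MamBo43 TRT or the 60-day library of MamBo89) and from 0 to 1 for MamBo43 TRT against MamBo38 (0 without the withdrawal library). For MamBo38 against MamBo89 they ranged from 3 to 6, with 6 without the 60-day MamBo89 library. For MamBo43 TRT against MamBo38, log2 fold changes ranged from -0.67 (without the 60-day library) to 0.67 (without the withdrawal library) for Cdkn1a, from -0.29 to 0.68 for Ccnd1 and from -0.27 to 0.27 for Ccnd2, none of them called. Genes called for trastuzumab ranged from 0 to 1057 within MamBo38, highest without untreated a, and from 0 to 2296 within MamBo89, highest without the untreated library that is not AG3, and members called ranged from 0 to 1 in both. Within MamBo89 5 genes were called without AG3, and within MamBo38 8 without untreated b. The lone library of an arm was assumed to vary like the other. No paired analysis was made: the labels carry no replicate numbers, and libraries of the same schedule were not matched across lines.

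Of the results not named here, 651 single-gene values and 216 counts of called genes or members did not change their call or moved by 1.5 times at most, and unscaled CPM moved none by more than the spread between libraries. Depth limits Cdkn1c, and it limits the locus genes in MamBo38 to what 3 counts allow.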
